A study of Homo sapiens with 48 samples.

Results

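In THP-1 cells, a human monocytic leukemia line, 195 genes that were all but silent without treatment were counted repeatedly after exposure to mercuric chloride. They were chosen from the counts: a gene symbol entered if its counts summed to at most 3 over the 12 untreated and vehicle libraries and to at least 30 over the 3 mercuric chloride libraries. Symbols starting ZNF, HIST, HSP, DNAJ, MT1, EGR or FOS, and CRYAB, were to be left out, but 0 symbols that met the thresholds bore such a name. The 195 members stand among 24462 symbols, of which 6086 had at most 3 control counts and are called silent below, so 3.20% of silent symbols are members. Because these libraries chose the members, the members' counts with mercuric chloride and in controls are described without a test.

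RNA came from cells kept for 12 h with 1 of 12 chemicals, each dosed to what the labels call its CV90 (by common usage the dose at which most cells survive), with 3 libraries per chemical. The other chemicals were the glucocorticoids dexamethasone and prednisolone, the JAK inhibitor tofacitinib, the calcineurin inhibitors tacrolimus and cyclosporine, the nucleoside analogues aciclovir and ribavirin, the detergent sodium lauryl sulfate, the preservative benzoic acid, bacterial lipopolysaccharide (LPS) and the isoflavone genistein. The 12 controls were 6 libraries with the solvent dimethyl sulfoxide (DMSO) as vehicle and 6 untreated libraries, each in a series 1 and a series 2 of 3. The vehicle titles give 0.1, 0.2 and 0.3% DMSO in series 1 and 0.4, 0.5 and 0.6% in series 2, whereas the protocol gives 0.1%, and which series belongs to which chemical is not given in the sources used here. All groups are the same leukemia line and not primary monocytes.

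Mercuric ions bind the thiol groups of proteins and small molecules. Cells are known to answer such metals with heat shock factor 1 (HSF1), which drives chaperone genes, with the metal-responsive factor MTF1, which drives metallothioneins, and with NRF2, which drives antioxidant genes. Many genes of other tissues and of the germ line, and many long noncoding RNAs, are normally held at very low levels in a monocytic line.

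The mercuric chloride libraries were the shallowest, at 5.95 to 6.96 M counts (M for mega-counts), against 8.23 to 10.9 M in the controls and 7.13 to 11.5 M in the other treatments. When every library was thinned to 5.95 M, the mercuric chloride libraries still held 18560 to 18804 detected symbols, above the 15243 to 16595 of the 45 others. The monocytic genes of a list of 9 (LYZ, CEBPA and FCGR1A among them) were all present but summed to 442 to 465 CPM (counts per mega-count of the library total) with mercuric chloride and to 951 to 1423 CPM in controls. Summed epithelial markers reached 23.1 CPM in 1 mercuric chloride library and as little as 3.32 CPM in another, against 0.62 to 1.94 CPM in controls. The higher library is replicate 1, with 32, 0 and 4 counts of EPCAM and 47, 2 and 4 of KRT18 over replicates 1 to 3, while KRT14, 1 of the 8 markers, was at 0 in all 3. Replicate 1 held 39.2% of the members' mercuric chloride counts from 36.2% of the depth. Without it, and with at least 20 counts over the other libraries, 183 symbols met the rule, of which 177 are members.

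Other marker lists were mixed. Neuronal markers summed to 266 to 291 CPM with mercuric chloride and 6.001 to 11.4 CPM in controls, led by the tubulin gene TUBB3 and the member NEFM (220 to 234 CPM without NEFM), while SYT1 and STMN2, 2 of the 10 markers, were at 0. Fibroblast markers summed to 29.6 to 33.6 CPM against 0.18 to 2.80 CPM through COL1A1, with COL3A1, LUM and POSTN (3 of 7) at 0, and erythroid markers to 14.8 to 22.1 CPM against 0.18 to 0.72 CPM through HBA2, with HBG1 at 0. Muscle markers (37.7 to 44.98 against 32.6 to 43.7 CPM, 3 of 9 at 0) and T cell markers (0.67 to 1.44 against 0.20 to 1.83 CPM, 4 of 8 at 0) overlapped between the groups, and B cell (12.6 to 15.0 against 14.1 to 22.98 CPM, 1 of 7 at 0) and germ cell markers (10.3 to 12.6 against 13.1 to 21.0 CPM, 3 of 10 at 0) were at or below control levels. Liver markers summed to 6.47 to 7.11 CPM (3.86 to 4.74 CPM without the member APOA2) against 1.22 to 2.96 CPM, with TTR (1 of 8) at 0. The part that RNA of other cells could have in the members' counts was not tested. In RNA pooled over many cells, more cells with a transcript and more transcript per cell cannot be told apart.

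The members' counts summed to 17252 over the 3 mercuric chloride libraries, to 197 over the 12 controls and to 1557 over the 33 libraries of the other treatments. Single members ranged from 30 to 984 mercuric chloride counts with a median of 55. A total of 37 members had at least 100 counts, 75 had 50 to 99 and 83 had 30 to 49, and the 10 most abundant held 29.3% of the counts. Counts were not converted to numbers of molecules, so the order of members is one of reads. In the controls, 88 members were at 0, and 49, 26 and 32 had 1, 2 and 3 counts.

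Detection was shared by the replicates. A total of 192 members had a count in all 3 mercuric chloride libraries, 183 had at least 5 and 131 had at least 10 in each. The exceptions were the epithelial genes MISP (22, 16 and 0 counts), MUC17 (18, 0 and 15) and DUOX2 (19, 14 and 0). More than 50% of a member's counts came from replicate 1 for 24 members, from replicate 2 for 7 and from replicate 3 for 3. Over all symbols tested, 21.8% were called higher with mercuric chloride than with both vehicle series and 20.1% lower, which is given as background only, since the rule used these libraries.

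NEFM, which encodes the medium chain of the neurofilaments of axons, had the most reads. It was counted 358, 337 and 289 times with mercuric chloride, 51.2 ± 5.49 CPM (SD, n = 3), and its highest count in any of the other 45 libraries was 4. The controls held 1 NEFM count in all. LINC00624, a long noncoding RNA of chromosome 1, followed with 329, 265 and 307 counts, 46.8 ± 2.03 CPM, and was at 0 in every control. Set against a limit of 3 counts in the 112.5 M counts of the controls summed, its pooled level was 1756-fold higher. The limit covers counting error only. Since the rule chose LINC00624 by these same counts, the fold is a description and not an estimate free of that choice. Its 1 sizeable count elsewhere was 11, in 1 dexamethasone library. Both genes thus lay far above every other library in all 3 replicates.

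**Figure D1:**
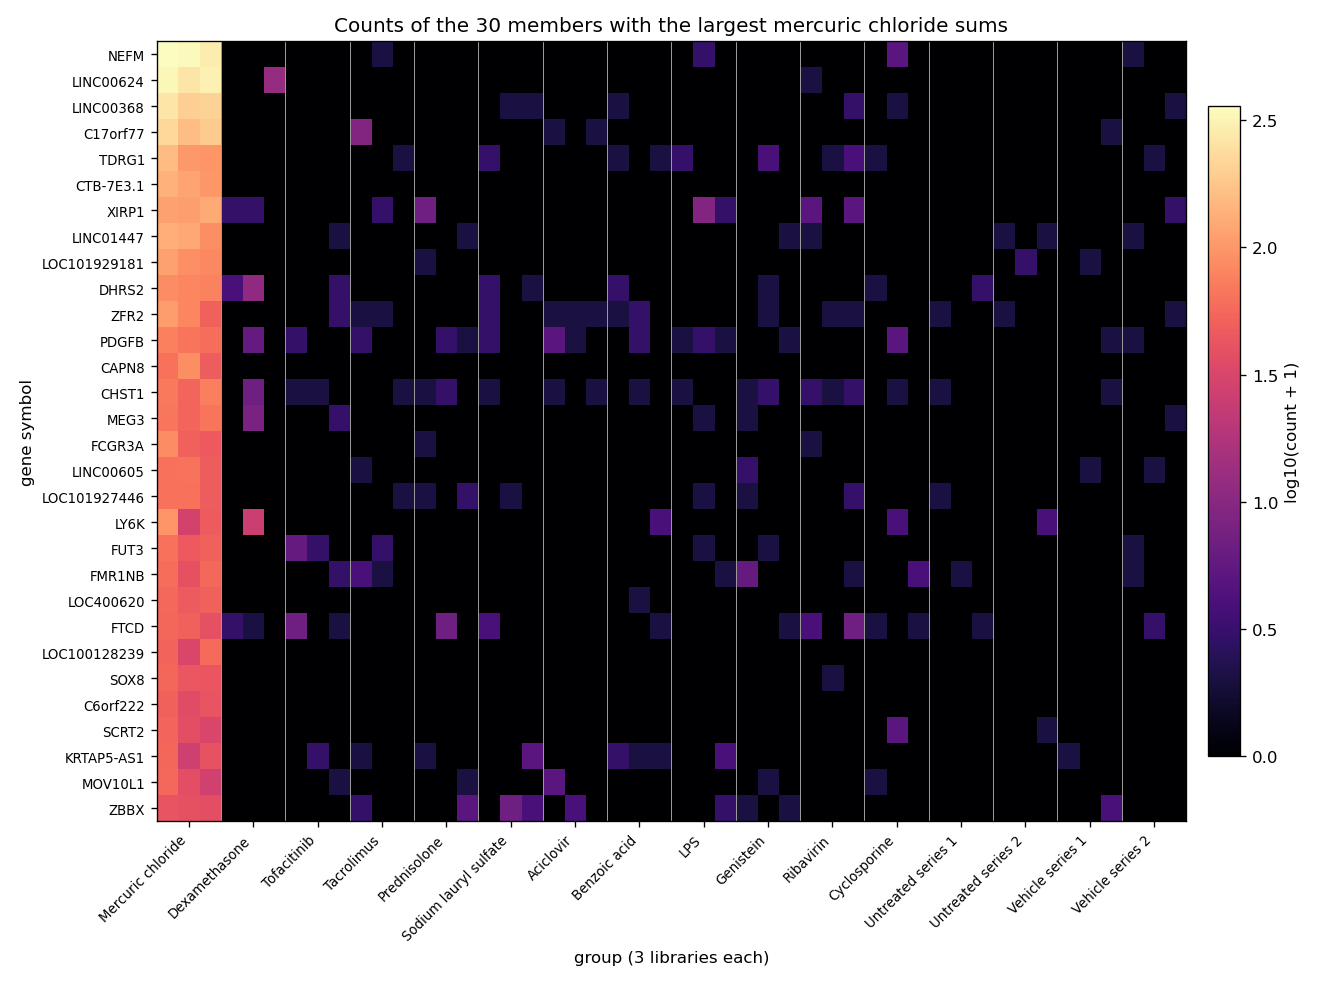
Counts of the 30 members with the largest mercuric chloride sums (rows) in all 48 libraries (columns, 3 per group), coloured by log10(count + 1). The 3 mercuric chloride columns at the left are bright for every gene, while the other 45 columns are mostly at 0, apart from single libraries such as the 25 counts of LY6K and the 11 of LINC00624 with dexamethasone.

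Long noncoding RNAs, which are transcribed but encode no protein, held many of the top places. LINC00368 was counted 261, 198 and 208 times and C17orf77 222, 160 and 188 times, each with 1 control count. RefSeq lists C17orf77 as CD300LD-AS1, antisense to the myeloid receptor gene CD300LD, which itself had 2 counts with mercuric chloride. CTB-7E3.1 (138, 116 and 100 counts) was at 0 in all other 45 libraries. LINC01447 (130, 121 and 89), LOC101929181 (113, 91 and 82), LINC00605 (62, 64 and 47), LOC101927446 (62, 62 and 47), LOC400620 (55, 46 and 51) and LOC100128239 (52, 31 and 57) followed. The 44 long noncoding RNAs with no other role assigned had a median of 69.5 counts.

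By biotype, 145 of the 195 members (74.4%) were protein-coding, 46 (23.6%) long noncoding and 3 pseudogenes in RefSeq, and CT45A4 was not matched. Protein-coding genes made up 60.7% of the other silent symbols and 77.8% of all symbols, and long noncoding RNAs 29.5% and 15.5%. The members' shares thus lay between those sets, and the differences were not tested.

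Members with a known role are described below by that role, with roles and examples assigned after their values had been seen. Transcription factors and nuclear receptors numbered 9, with 44 to 139 counts and a median of 91. SOX8, an SRY-box factor of neural crest and testis, had 54, 43 and 42 counts and 0 in controls. SCRT2, a neuronal zinc finger repressor, had 53, 37 and 31. GATA3, a factor of T cell development, had 35, 35 and 31, the bile acid receptor gene NR1H4 33, 32 and 31, and the estrogen receptor gene ESR1 36, 29 and 26. GATA3 and NR1H4 were nearly even over the replicates.

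Secreted ligands and hormones numbered 8. PDGFB, the B chain of platelet-derived growth factor, was counted 75, 66 and 60 times, 10.45 ± 0.86 CPM. It was also among the members seen most often elsewhere, with 30 counts spread over the other treatments and 5 at most in any of them. EDN2, an endothelin, had 17, 18 and 29 counts, CHGA, the granule protein chromogranin A, 18, 18 and 22, and FGF21, a hormone that liver and other tissues release under metabolic stress, 22, 12 and 22, and all 3 of these were at 0 in the other 45 libraries. SOST, the bone antagonist of WNT signals, had 17, 13 and 25, and INHBC, an activin subunit gene, 20, 28 and 11.

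Neuronal and glial genes other than NEFM were modest. The 16 members of this role had a median of 37.5 counts, so that NEFM with 984 stands apart from the rest. KIF5A, a kinesin of axonal transport, had 31, 20 and 35 counts, MOBP, a myelin protein, 25, 25 and 9, and the nicotinic receptor subunit gene CHRNA4 23, 15 and 13. The RNA-binding splicing regulator NOVA2 had 47, 20 and 20 counts.

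Germ line and cancer/testis genes also numbered 16, with a median of 47. TDRG1, a noncoding RNA named for testis development, had 156, 102 and 97 counts, the cancer/testis gene FMR1NB 59, 39 and 55, and MOV10L1, a helicase of the piRNA pathway of male germ cells, 55, 37 and 27. LY6K, a GPI-anchored protein of testis, was uneven at 96, 28 and 46 counts. DAZL, a germ cell RNA-binding protein and one of the germ cell markers, had only 9, 18 and 5, while DDX4 and TNP1 of the same marker list were at 0.

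Striated muscle contributed 4 members. XIRP1, an actin-binding protein of muscle, was counted 114, 110 and 124 times, 18.2 ± 1.63 CPM. The myosin-binding protein gene MYBPC2 had 31, 40 and 42 counts and the myosin light chain gene MYL1 14, 11 and 15, whereas the muscle markers MYH1, MYH2 and MYOD1 were at 0. Every XIRP1 count was even in the 12 libraries that held any, a property that 19 of the 16040 symbols with at least 100 counts shared. Its sum divided by 2 would be 174, and the cause was not tested. A common divisor was found for 14 members in all, most of them with counts in only 2 to 6 libraries, and 10 of these would fall below 30 after division.

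Epithelial and mucosal genes numbered 14, with 33 to 198 counts. CAPN8, a calpain protease of gastric mucosa, had 63, 88 and 47 counts and was at 0 in the other 45 libraries. FUT3, the Lewis blood group fucosyltransferase, had 63, 45 and 51, and the secreted mucin gene MUC5AC 28, 21 and 18. These 3 genes did not have most of their counts in replicate 1, whereas EPCAM and KRT18 did, as did MISP, MUC17 and DUOX2 of the same role.

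Metabolic enzymes numbered 11. DHRS2, a short-chain dehydrogenase, had 87, 80 and 76 counts, the sulfotransferase gene CHST1 69, 53 and 73, and FTCD, a liver enzyme of histidine breakdown, 54, 50 and 38. DHRS2 was the most even of the 3, at 12.7 ± 0.73 CPM. Blood and immune cell genes numbered 10, led by the IgG receptor gene FCGR3A (CD16a of natural killer cells and macrophages) with 86, 51 and 45 counts. Its neighbour FCGR3B, the CD16b of neutrophils, had 41, 30 and 13, and reads of these near-identical genes may have been split between them. Of the imprinted genes, the maternally expressed RNA MEG3 had 67, 53 and 66 counts, and the retrotransposon-derived PEG10 had 48, 35 and 33 with 0 in the other 45 libraries. Apolipoprotein gene APOA2, a liver marker, had 12, 16 and 19.

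Among the remaining members of the 30 with most reads, ZFR2 had 107, 81 and 50 counts, C6orf222 50, 35 and 41, KRTAP5-AS1 54, 26 and 40, and ZBBX 41, 39 and 37. Of these, C6orf222 was at 0 in the other 45 libraries. The olfactory receptor genes were 5, with 58 to 105 counts. In all, 19 members belong to 10 families with near-identical copies (among them the OR4F and OR8B olfactory receptors, the GOLGA6 golgins, the CT45A antigens, RFPL4A with RFPL4AL1, and FCGR3A with FCGR3B), and their 1297 counts cannot be assigned to single copies with certainty.

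At the lower threshold, ASTN1 entered with 15, 3 and 12 counts (30 in sum), CACNG6 with 14, 7 and 10, and CD48 with 13, 11 and 7. CASP12 stayed out with 13, 6 and 9 (28 in sum), CTD-3080P12.3 with 9, 6 and 14, and CYLC2 with 14, 8 and 6. There were 9 members with 30 or 31 counts and 12 silent symbols with 28 or 29. At the other threshold, 32 members had 3 control counts, and 29 symbols with 4 control counts had 30 to 230 mercuric chloride counts. The limits cut through a continuous range.

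Promoters were read from RefSeq (GRCh38.p14, from 250 bases before to 50 bases from the annotated start), where 132 of the 195 members have an entry among 17903 symbols of the files. Those of 6 members are shown, in the direction of transcription, because they hold letters of elements of the metal and heat responses or a TATA box, a choice made after the matches were seen. Capitals mark only the letters of the element named for each promoter. Other motifs searched below stay in lower case where they occur, such as the TATA box of LINC00368 and MEG3 and the AP-1 site of XIRP1 and CAPN8. For TDRG1 (chr6:40378087-40378386, plus strand), the capitals are the consensus of 3 alternating heat shock units, TTC and GAA with 2 bases between, at -127 and -122 from the start.
TDRG1: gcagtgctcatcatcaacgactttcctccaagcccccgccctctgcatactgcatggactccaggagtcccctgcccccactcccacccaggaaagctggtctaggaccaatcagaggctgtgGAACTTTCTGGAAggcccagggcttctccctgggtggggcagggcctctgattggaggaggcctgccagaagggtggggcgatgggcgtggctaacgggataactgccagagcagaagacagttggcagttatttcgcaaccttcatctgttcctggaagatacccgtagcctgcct
LINC00368 (chr13:111095588-111095887, plus strand), XIRP1 (chr3:39192546-39192845, minus strand) and CAPN8 (chr1:223665652-223665951, minus strand) hold only pairs of such units, GAANNTTC or TTCNNGAA, in capitals at -33, at -196, and at -187 and -82.
LINC00368: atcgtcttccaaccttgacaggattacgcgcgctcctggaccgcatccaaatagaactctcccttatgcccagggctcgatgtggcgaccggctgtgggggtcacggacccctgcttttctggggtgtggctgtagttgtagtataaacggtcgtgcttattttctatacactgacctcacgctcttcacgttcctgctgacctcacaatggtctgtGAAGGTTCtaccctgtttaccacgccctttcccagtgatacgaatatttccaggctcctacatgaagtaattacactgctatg
XIRP1: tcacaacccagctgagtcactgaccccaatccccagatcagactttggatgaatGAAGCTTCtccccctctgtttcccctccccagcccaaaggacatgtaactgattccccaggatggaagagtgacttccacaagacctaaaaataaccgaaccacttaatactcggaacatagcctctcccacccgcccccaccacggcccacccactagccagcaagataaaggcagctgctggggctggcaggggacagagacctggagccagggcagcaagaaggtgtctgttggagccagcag
CAPN8: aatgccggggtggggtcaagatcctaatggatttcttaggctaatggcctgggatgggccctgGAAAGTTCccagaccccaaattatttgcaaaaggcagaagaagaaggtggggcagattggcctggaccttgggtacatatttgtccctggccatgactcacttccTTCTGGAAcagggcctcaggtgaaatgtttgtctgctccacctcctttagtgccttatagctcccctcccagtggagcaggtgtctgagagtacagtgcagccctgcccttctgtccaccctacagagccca
The MEG3 promoter (chr14:100825858-100826157, plus strand) has in capitals the core of a metal response element, TGCACNC or TGCGCNC, read on the other strand, at -73, and that of DHRS2 (chr14:23629865-23630164, plus strand) a TATA box at -29.
MEG3: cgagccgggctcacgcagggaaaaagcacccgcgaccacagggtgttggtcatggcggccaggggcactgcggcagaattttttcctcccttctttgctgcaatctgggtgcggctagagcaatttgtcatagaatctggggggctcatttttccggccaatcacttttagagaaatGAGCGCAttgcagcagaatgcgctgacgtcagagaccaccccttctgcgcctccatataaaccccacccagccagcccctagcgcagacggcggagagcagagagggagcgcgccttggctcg
DHRS2: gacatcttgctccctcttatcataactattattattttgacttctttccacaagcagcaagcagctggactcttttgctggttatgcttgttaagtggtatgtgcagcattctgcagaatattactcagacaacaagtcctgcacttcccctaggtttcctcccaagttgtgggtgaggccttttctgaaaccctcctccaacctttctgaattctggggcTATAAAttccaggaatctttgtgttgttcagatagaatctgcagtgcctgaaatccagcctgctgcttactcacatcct

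Motifs were searched on both strands. The heat shock consensus of 3 units (GAA and TTC in turn, 2 bases apart, starting with either) was found in 1 of the 132 members' promoters (0.76%, that of TDRG1), in 0.51% of the other silent symbols' and in 0.41% of all. The pair of units, GAANNTTC or TTCNNGAA, which the consensus contains, was found in 17.4% of members, 15.3% of other silent symbols and 11.9% of all promoters. The metal response core was found in 25%, 23.1% and 33.5%, the antioxidant response core TGACNNNGC in 16.7%, 13.0% and 14.4%, and the AP-1 site TGANTCA in 6.82%, 10.4% and 6.37%. A TATA box (TATAAA) stood in 18.9% of members and 18.7% of other silent symbols but in 7.18% of symbols above 3 control counts, and CCAAT in 36.4%, 37.8% and 36.0%. The members' promoters thus resembled those of other silent symbols in TATA box and in metal response core, and the differences were not tested. The median number of CG dinucleotides in the 300 bases was 7 in members, 5 in other silent symbols and 24 in symbols above 3 control counts. A match is a description of letters and not of a bound site.

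The same thresholds were then applied to the other groups, to see how many silent symbols each treatment brought to 30 counts. LPS gave 7 symbols, among them the chemokine genes CXCL10, CCL19 and CXCL3 and the follicular dendritic cell gene FDCSP. Dexamethasone gave 5 (GPR34, KRT81, LINC-ROR, MMP7 and SAA1) and prednisolone 1 (MMP7, a matrix metalloproteinase). The other 8 treatments gave 0, as did each control group when judged against the other 9 control libraries. The only member among these symbols was C1orf61, with LPS. Mercuric chloride gave 195. After thinning of all libraries to the same depth it gave 229, of which 181 are members, against 8 for LPS, 3 for dexamethasone and 1 for prednisolone. Thinning also lowered the control counts, which lets further symbols meet the limit of 3 control counts.

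Lower limits gave a similar picture. Silent symbols with at least 10 counts numbered 577 with mercuric chloride, 43 with dexamethasone, 32 with LPS, 16 with prednisolone and 0 to 10 with the other 8 treatments. With at least 1 count they numbered 2731 with mercuric chloride and 675 to 864 with the other treatments. The 195 members held 57.3% of the mercuric chloride counts of all silent symbols, so that the remainder was spread over many genes below the threshold.

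**Figure D2:**
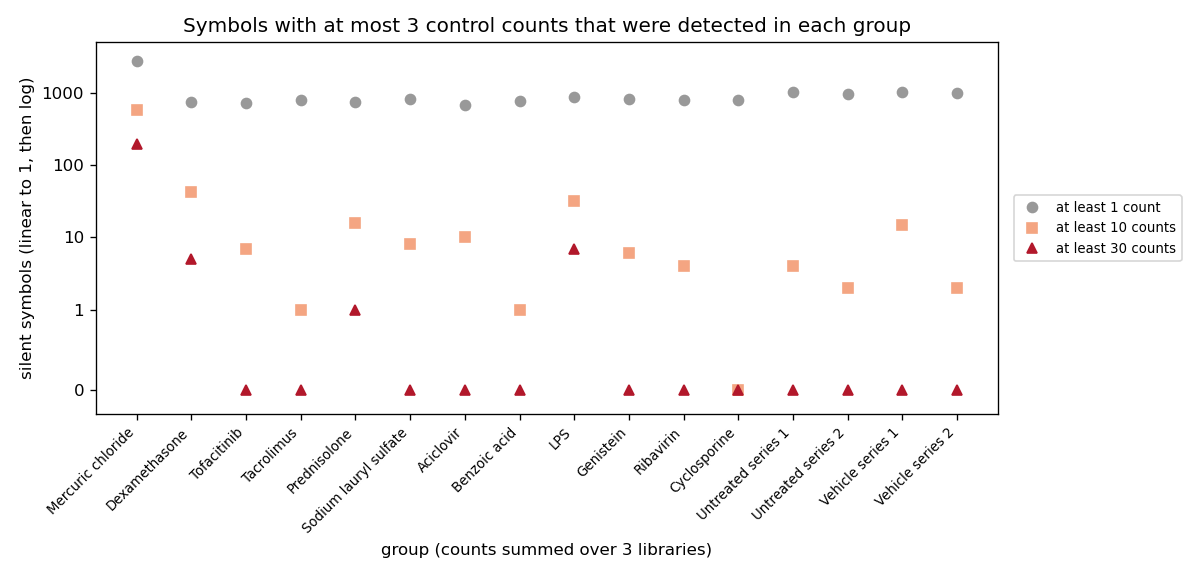
Number of symbols with at most 3 control counts that reached 1, 10 or 30 counts summed over the 3 libraries of each group, on an axis that is linear to 1 and logarithmic above. Each control group was judged against the other 9 control libraries. Mercuric chloride stands at 2731, 577 and 195 symbols, with LPS (864, 32 and 7) and dexamethasone (751, 43 and 5) next at 10 and 30 counts.

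The members' summed level was 894 ± 90.9 CPM (SD, n = 3) with mercuric chloride, and 973, 916 and 795 CPM in replicates 1 to 3. In the other treatments the means ran from 3.45 CPM with genistein to 7.56 CPM with dexamethasone, and single libraries from 2.20 to 13.6 CPM. Every mercuric chloride library lay far above all 33 of these, but the rule chose the members by their counts in the mercuric chloride libraries. The controls, at 0.83 to 3.16 CPM per library, are low because the rule required it. Silent symbols as a whole, chosen by the controls alone, show the same step between controls (22.1 to 38.4 CPM) and other treatments (47.2 to 104.7 CPM). With mercuric chloride the silent symbols summed to 1389 to 1712 CPM, and the members held 57.3% of those counts.

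**Figure D3:**
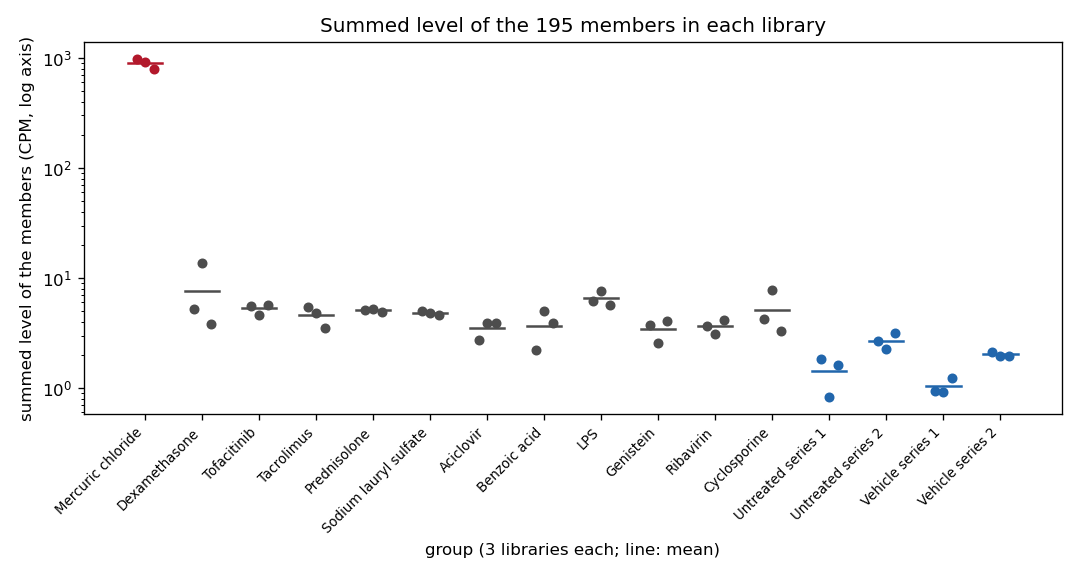
Summed level of the 195 members in each of the 48 libraries, in CPM on a log axis, with a line at the mean of each group of 3. The mercuric chloride libraries sit between 795 and 973 CPM and the other treatments between 2.20 and 13.6 CPM. The choice of members required high counts with mercuric chloride and low counts in the controls (blue).

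Outside mercuric chloride the members were counted little and unevenly. Of the 195, 36 were at 0 in all 33 libraries of the other treatments and 30 were at 0 in all 45 libraries without mercuric chloride. For differences among the other 11 treatments, which the choice of members did not use, each treatment was tested against the mean of the other 10. None of the 195 members had counts enough to pass the filter on low counts of that test, so 0 were called, where 41.5% of the 14870 symbols tested were higher in at least 1 of the 11 contrasts. The same filter left no member for DESeq2 either, so no unadjusted p exists for a member in either test. With no filter 47 members were called, all higher, against 32.2% of all symbols, and 5 of these 50 calls had counts in all 3 libraries of the treatment.

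A total of 10 members reached 10 counts in another treatment. C1orf61, listed in RefSeq as a noncoding gene, was counted 24, 11 and 9 times with LPS, against 41, 17 and 14 with mercuric chloride and at most 3 in any other library of the remaining treatments. It was thus present in all 3 libraries of both treatments, and with mercuric chloride the replicates were uneven. FAM167A had 3, 20 and 2 counts with LPS, 1, 10 and 2 with sodium lauryl sulfate, and 13, 9 and 13 with mercuric chloride. Its sum was 25 with LPS, 20 of them from 1 library, and 35 with mercuric chloride. The LPS libraries were deeper, with a mean of 10.45 M counts against 6.41 M, so these sums are not on the same scale. XIRP1 had 0, 8 and 2 counts with LPS.

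With dexamethasone 5 members reached 10 counts, each in an uneven way. LY6K had 0, 25 and 0 counts, LINC00624 0, 0 and 11, GPRC5A, an orphan receptor gene induced by retinoic acid, 0, 2 and 13, DHRS2 3, 10 and 0, and the adhesion receptor gene ADGRV1 11, 5 and 0. None of these was present in all 3 dexamethasone libraries. Dexamethasone replicate 3 stood apart from replicates 1 and 2, with a chi-square per degree of freedom of 36.1 and 43.1 against 3.51 between those, and it had the fewest detected symbols of all 48 libraries, 15527. Without it LINC00624 stood at 0 and GPRC5A at 2 counts with dexamethasone. The L-type calcium channel gene CACNA1C had 8, 0 and 3 counts with prednisolone, and the brush border myosin gene MYO1A 1, 1 and 8 with genistein. With mercuric chloride these last had 31, 21 and 17 and 26, 50 and 22.

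The unevenness was general. Members reached 5 counts in another treatment 87 times, of which 12 had counts in all 3 libraries and 29 in a single library. The median share of counts in the top library was 80% there and 43.4% with mercuric chloride, a comparison of small with larger sums.

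**Figure D4:**
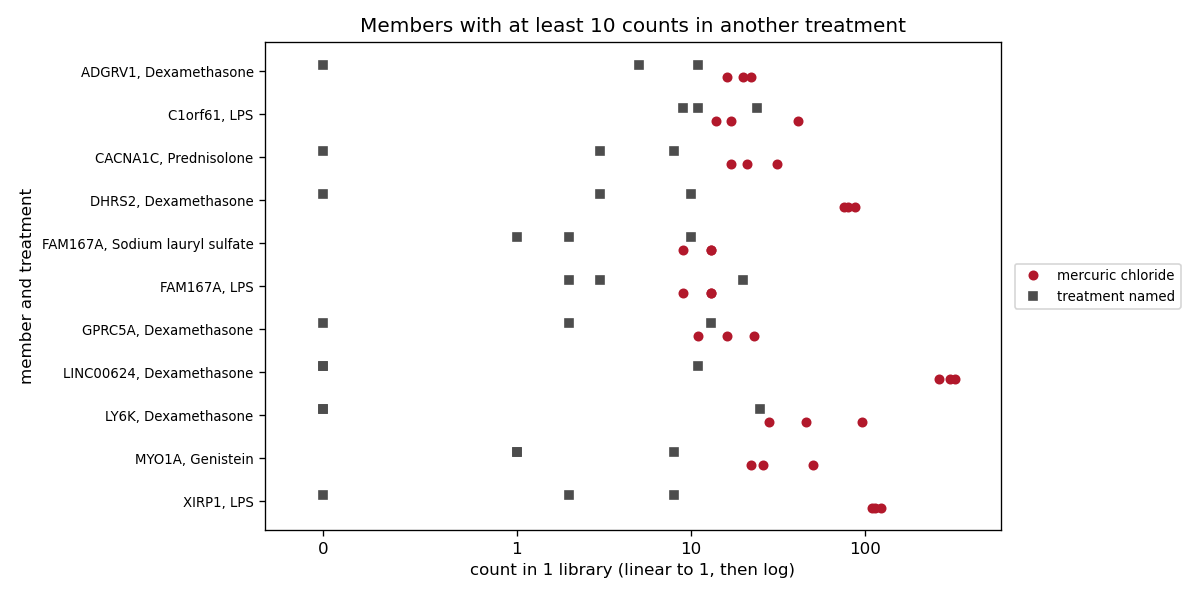
Counts per library of the 10 members with at least 10 counts in another treatment (FAM167A stands in separate rows for sodium lauryl sulfate and LPS), on an axis that is linear to 1 and logarithmic above. Circles are the 3 mercuric chloride libraries and squares the 3 libraries of the treatment named. Most squares lie at 0 to 3 with a single library at 8 to 25, while C1orf61 has 24, 11 and 9 counts with LPS.

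Members lay on every chromosome, with 24 on chromosome 1, 21 on chromosome 19 and 11 on each of chromosomes 6, 7, 8 and 11. Of the 24286 symbols of the files that were matched, 2433 lay on chromosome 1 and 1573 on chromosome 19. Chromosomes 6, 7, 8 and 11 held 1267, 1148, 861 and 1477 of them. Differences between these shares were not tested. Of the 194 that RefSeq names, 46 (23.7%) overlap another symbol of the files, against 33.4% of all symbols. A member was the nearest upstream gene on the same strand for 5 members: MYL1 for ACADL, FCGR3B for FCGR3A, LINC00431 for LINC00368, OR8B8 for OR8B4 and RFPL4A for RFPL4AL1. LY6K and LOC100288181 overlap each other, as do CACNA1H and TPSG1. Gene order was taken from GRCh38 while the files use hg19, so no distances are given.

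The genes next to the members were higher with mercuric chloride more often than genes in general, a measure that the rule did not use. The nearest upstream gene on the same strand could be tested for 118 members and rose for 47 of them (39.8%), against 3202 of 15255 symbols (21.0%) and 525 of 2433 other silent symbols (21.6%). Its median log2 fold change was 0.45 for members and -0.03 for all symbols. Downstream neighbours rose for 40 of 115 members (34.8%), against 20.9% of all and 18.8% of other silent symbols. Neighbouring genes are not independent replicates, so these shares are given without a test. Without the filter on low counts the upstream share was 30.6% of 173 members against 15.4% of all.

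**Figure D5:**
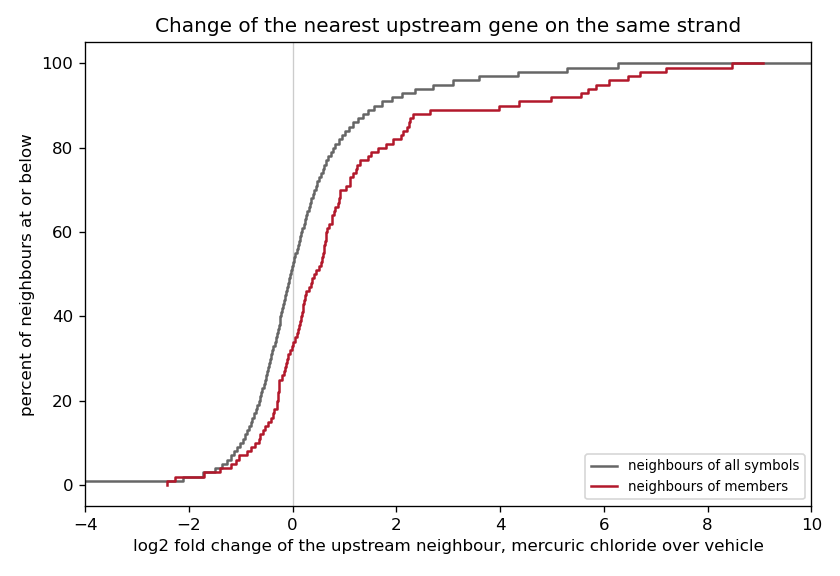
Cumulative distribution of the log2 fold change, mercuric chloride over vehicle, of the nearest upstream gene on the same strand, for 118 members (red) and 15255 symbols (grey) (a few neighbours of all symbols lie beyond the axis). The red curve lies to the right of the grey over most of the range, with medians of 0.45 and -0.03.

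Some members had strongly changed neighbours. C6orf222 lies downstream of ETV7, an ETS factor, which rose over vehicle by 6.94 on the log2 scale (SE 0.70, adjusted p = 1.231e-07). ETV7 had 23 counts in all 12 controls and 224 in the 3 mercuric chloride libraries. Those controls include untreated libraries, which the fold change does not use. SOX8 lies downstream of LMF1-AS1, which rose by 6.46 (SE 0.81, adjusted p = 1.932e-05). KRTAP5-AS1 overlaps DUSP8, a MAP kinase phosphatase gene that rose by 7.59 (SE 0.33, adjusted p = 3.324e-19) with 554, 456 and 337 counts. Since the use of strand in counting is not given in the sources used here, reads of such an overlapping pair cannot be told apart. Chosen after their values were seen, FAM71A lies downstream of ATF3, which rose by 7.33 (adjusted p = 3.432e-25), and CDH16 downstream of RRAD, which rose by 8.71 (adjusted p = 2.706e-09).

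Other neighbours changed less. CKB, the brain creatine kinase gene upstream of LINC00605, rose by 2.20 (adjusted p = 1.851e-20), the kinase gene PIM3 upstream of MOV10L1 by 1.31 (adjusted p = 7.138e-18), RPL13AP20 upstream of GPRC5A by 1.04 (adjusted p = 7.96e-06), CTSB upstream of FAM167A by 0.76 (adjusted p = 1.033e-10), DAPK3 upstream of ZFR2 by 0.68 (adjusted p = 0.007754) and RPL3 upstream of PDGFB by 0.64 (adjusted p = 2.235e-07). The fractalkine receptor gene CX3CR1, upstream of XIRP1, fell by 2.36 on the log2 scale (adjusted p = 3.562e-12). For CAPN8, DHRS2, FMR1NB, FTCD, ZBBX, C17orf77 and LINC00624 the upstream gene did not pass the test. ADAM7 upstream of NEFM and DLK1 upstream of MEG3, itself an imprinted gene, were at 0 in the mercuric chloride libraries and in all 12 controls. The same held for LOC100134391 upstream of LOC400620. Whether neighbours had a part in the members' counts was not tested.

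Genes that are no members were read from lists of known stress responses, to show the setting in which the members appeared. The lists were chosen with earlier results of these data known. As background for every list, 21.8% of all symbols tested rose with mercuric chloride and 20.1% fell. Of 20 tested HSF1-linked genes outside the excluded names, 17 rose and FBXO45 fell, by 0.84 on the log2 scale, with a median log2 fold change of 1.99 against -0.01 over all 15642 symbols tested. The HSP70 co-chaperone gene BAG3 went from 19.8 ± 4.83 CPM (SD, n = 6 vehicle libraries) to 497 ± 39.9 CPM (n = 3), and the extracellular chaperone gene CLU from 20.6 ± 5.23 to 1339 ± 90.3 CPM. IER5, an activator of HSF1, rose by 4.62 on the log2 scale (SE 0.09) and RGS2, a regulator of G protein signals, by 6.26 (SE 0.17).

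The lists on metals and oxidants moved the same way. Of 9 tested metal-responsive genes outside the MT1 names 8 rose and 0 fell (median 1.75). The metallothionein gene MT2A went from 136 ± 39.1 to 10601 ± 248 CPM, the zinc exporter gene SLC30A1 rose by 4.41 (SE 0.32), the ferritin heavy chain gene FTH1 by 2.73 (SE 0.09) and SLC30A3 by 1.77 (SE 0.34). Of 21 tested NRF2 target genes 15 rose and 0 fell (median 1.37). The heme oxygenase gene HMOX1 went from 3.33 ± 1.78 to 1576 ± 126 CPM, and OSGIN1, AKR1C1 and SRXN1 rose by 3.61, 3.43 and 2.82. FTH1 and FTL stand in both lists. Over all the stress lists read here, ATF3, PPP1R15A, SLC7A11, IER5, RRAD, GEM, RND1 and RGS2 also stand in more than a single list. The lists are therefore not independent of each other.

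Immediate early genes and partners of AP-1 rose in 22 of 25 tested cases (median 4.48), while MYC, the growth-promoting transcription factor gene, fell by 3.03 on the log2 scale (SE 0.35). ATF3, a stress-induced transcription factor, went from 3.67 ± 1.55 to 565 ± 24.3 CPM, the synaptic immediate early gene ARC rose by 8.59 (SE 0.43), the GTPase gene RRAD by 8.71 (SE 0.75) and the orphan nuclear receptor gene NR4A1 by 6.80 (SE 0.44). RRAD and ARC, with 8 and 40 control counts, were themselves close to silent without mercuric chloride. Of 18 tested genes of the integrated stress response 13 rose (median 1.93), PPP1R15A by 5.77, SESN2 by 3.72 and CTH by 3.20 among them, and VLDLR fell by 1.56.

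Of 15 tested stress cytokines and growth factors that are no members 10 rose and 0 fell (median 2.99), and FGF21 of the same list is a member. IL11 went from 0.18 ± 0.15 to 18.0 ± 0.61 CPM, the EGF receptor ligand genes HBEGF and EREG rose by 5.63 (SE 0.14) and 5.41 (SE 0.86), and INHBA, with 30, 28 and 17 counts, was at 0 in the 6 vehicle libraries. Of 11 tested small GTPase and cytoskeletal genes 7 rose and 0 fell (median 2.95), among them the smooth muscle calponin gene CNN1 (by 7.38, SE 0.65) and the GTPase gene GEM (by 6.20, SE 0.77). These 2 lists have 23 and 21 genes in the files, and those with too few counts were not tested. A gene near 0 in controls could pass the filter on low counts through the mercuric chloride libraries. The shares that rose and the medians of such lists may therefore be too high. All genes named as higher in these lists passed the test with adjusted p-values between 4.883e-33 for IER5 and 0.00154 for SLC30A3.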

How the data were processed

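The authors deposited counts, as whole numbers for each gene symbol, in 1 file for each of 48 libraries, made from RNA libraries prepared from 500 ng of RNA with a Lexogen Quant-Seq kit, per the labels' protocols. Per the submitters' processing notes, Bowtie2, bedtools and the build hg19 (GRCh37) entered the processing. Nothing used here gives versions, roles, annotation, use of strand or removal of duplicate reads. Rows of the 286 symbols that occur on several of the 25737 rows were summed, which left 24462 symbols. The files hold 0 columns of other samples.

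Groups came from the labels. They do not say whether replicates were separate cultures. The p-values therefore reflect the spread of these libraries alone, possibly a technical one. The 48 pairs of libraries within groups gave a chi-square per degree of freedom of 2.13 to 43.1, and 0 pairs were identical. Total counts of 5.95 to 11.5 M set the precision, and limits cover counting error only, since molecular identifiers are not mentioned.

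The members and the gene lists were chosen with earlier results of these data known. Levels in CPM are counts scaled to a common library total, taken as the plain total, or to the TMM-scaled total for the stress lists. Tests used edgeR 4.0.16 (quasi-likelihood F-test, TMM, filterByExpr) in R 4.3.3 with limma 3.58.1, and DESeq2 1.42.0 as an alternative. Benjamini-Hochberg adjustment covered all symbols tested, and genes are said to have risen, fallen or been called at an adjusted p under 0.05. Mercuric chloride was tested against each vehicle series in 1 fit of all 48 libraries (15642 symbols, with 32 degrees of freedom left for the spread). The larger p was kept where the signs agreed and set to 1 elsewhere, and the log2 fold change is the mean of both. The 33 libraries of the other 11 treatments were fitted apart, with each treatment against the mean of the other 10, adjusted over symbols and contrasts together. The tests were tried on simulated data. Tables were handled with Python 3.11.15, pandas 2.3.3, numpy 2.4.6 and scipy 1.17.1.

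Named members are the 30 with most mercuric chloride counts, those with at least 10 counts in another treatment or called there, those in a list, and up to 3 on each side of the threshold of 30 counts. Named non-members are up to 4 called genes with the largest change per list, and upstream neighbours of named members. Further names were chosen after their values were seen. Some members are not named here. RefSeq tables (GRCh38.p14) gave biotypes, neighbours and promoters. The alternatives were other scaling (DESeq2 size factors), DESeq2's test, no filter, other sets of controls, depth thinning, a replicate block and leaving out libraries.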

Additional observations from a re-analysis of the deposited data

How the results depend on the processing

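Other settings moved the number of silent symbols detected with mercuric chloride from 131 (at least 10 counts in each library) to 302 (only the 6 control libraries of series 2, with the same limits), the 1 setting that moved it by over 1.5 times. Leaving out a mercuric chloride library gave 183 to 208. No member passed the filter on low counts in the test among the other 11 treatments, nor with DESeq2 size factors, DESeq2's test, without cyclosporine or with the replicate block, so the 0 members called there say nothing of stability. Without the filter on low counts 47 of 159 tested members were called, in 50 contrasts and all higher, where 32.2% of all 21274 symbols were higher in at least 1 contrast. These rested on sums of 4 to 44 counts, of which 19 came from 1 library and 5 from all 3. Leaving out a replicate number from all 11 treatments gave 0 to 1, the 1 being FAM167A, with LPS without replicate 1, and with LPS and sodium lauryl sulfate without replicate 3. Symbols called with mercuric chloride against both vehicle series numbered 6549, and 5970 to 8221 under the alternatives. Of the upstream neighbours tested, 36.1 to 40.5% rose when 1 library was left out, and 30.6% without the filter on low counts, because that tests more neighbours of low count. Replicate numbers in the labels gave no sign of pairing: of 360 same-numbered pairs of libraries, deviations from the group mean correlated at -0.15 to 0.22 with 5 over 0.1. With the replicate block 6527 symbols were called with mercuric chloride and 39.8% of upstream neighbours rose, while the 0 members called among the other treatments is void, since none was tested. The 375 alternative values of 25 named genes of the stress lists all kept direction and call. DESeq2 size factors moved the median of all symbols by 0.08 on the log2 scale. Depth limits what can be said of single members, since a member at 30 counts rests on about 10 reads per library, and a control sum of 3 counts lies at 0.03 CPM.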
